A study of Mus musculus with 3 samples.

Results

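The genes described here encode the chains of integrins and laminins. They were chosen as the listed integrin alpha, integrin beta and laminin chain genes whose Ensembl identifiers matched a mouse symbol, and they number 36 of the 29267 genes in the tables. Of these, 18 encode integrin alpha chains, 8 integrin beta chains and 10 laminin chains. RNA-seq was performed with 1 library each for mouse embryonic fibroblasts (MEFs) of the OG2 strain, MEFs of the ICR strain and embryonic stem cells (ESCs) of the R1 line. In the study, MEFs are the starting cells of reprogramming and ESCs the reference for its end point. Both MEF samples were at passages 3 to 5. OG2 mice carry an Oct4-GFP transgene, which reports a pluripotency gene, and the study's methods describe MEFs from 13.5-day embryos with this allele. No transgene is named for the ICR MEFs. The R1 cells were at passage 30 and labelled naive. No treatment was given in the labels to any of the 3 samples, and how many embryos were pooled for the MEFs is not given in the sources used here. The strain differs between the MEF samples, so strain and sample cannot be told apart, and the ESC side had no replicate.

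An integrin is a pair of 1 alpha and 1 beta chain in the cell membrane, and the pair decides which ligand in the extracellular matrix or on another cell is bound. Laminins are trimers of an alpha, a beta and a gamma chain, joined by a coiled coil, and they form the network of basement membranes. Fibroblasts hold on to collagen and fibronectin mainly through integrins with the beta1 chain, while pluripotent cells are known for attachment to laminin through alpha6 with beta1. The chains are assembled inside the cell, and for each pair or trimer the level of its lowest chain is given. Here only mRNA was measured, and in a bulk library the chains of a pair need not be in the same cell.

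The depth of a library is its sum of expected counts, which are RSEM's estimated numbers of reads per gene. It was 5149312 and 4590619 for the OG2 and ICR MEFs and 1717838 for the library labelled ESC. At these depths 3 counts equal 0.583, 0.654 and 1.75 CPM, or counts per 1000000 counts, and a count of 0 allows a level up to these values, for counting error only. The library labelled ESC stood apart from its label in part. Of 10 markers of pluripotent cells, Pou5f1 had 71 counts, Nanog 51.1, Sox2 32, Fgf4 14 and Tdgf1 2 there. Zfp42, Dppa5a, Esrrb, Utf1 and Lin28a were at 0. In each MEF sample 8 of these 10 markers were at 0. All 10 fibroblast markers were detected in both MEF samples and 9 of 10 in the library labelled ESC, and their summed level was 15266, 15871 and 1173 TPM, or transcripts per 1000000 transcripts, in OG2 MEFs, ICR MEFs and the library labelled ESC. The library labelled ESC is therefore named by its label throughout. In bulk samples, fewer cells of a type and less RNA per cell cannot be told apart.

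Promoters are shown for 3 members on which the results turn: Itgb1, the chain with the highest level, Lamb1, a laminin chain that was lower in the library labelled ESC, and Lamb3, a laminin chain that was higher there. Of the 36 members, 23 matched in the table of RefSeq promoters (GRCm38.p6). Each sequence is the 250 bases before a start listed by RefSeq on the + strand, 5′ to 3′, at chr8:128685404-128685653 for Itgb1, chr12:31265043-31265292 for Lamb1 and chr1:193301744-193301993 for Lamb3, where the more upstream of 2 listed starts was taken. By the GENCODE gene spans given below, the Lamb1 window reaches past the first base of the gene and the Lamb3 window lies inside the gene. Capitals mark the GC box GGGCGG on either strand.
Itgb1: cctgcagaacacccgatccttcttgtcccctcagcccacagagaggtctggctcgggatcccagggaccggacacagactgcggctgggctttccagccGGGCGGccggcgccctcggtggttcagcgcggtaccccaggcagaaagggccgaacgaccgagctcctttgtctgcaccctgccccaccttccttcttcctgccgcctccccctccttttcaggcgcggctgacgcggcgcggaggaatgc
Lamb1: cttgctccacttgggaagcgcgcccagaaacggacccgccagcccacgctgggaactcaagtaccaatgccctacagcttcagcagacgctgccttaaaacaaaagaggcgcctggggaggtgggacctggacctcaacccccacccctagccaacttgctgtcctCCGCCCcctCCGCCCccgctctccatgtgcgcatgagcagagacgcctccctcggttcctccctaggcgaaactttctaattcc
Lamb3: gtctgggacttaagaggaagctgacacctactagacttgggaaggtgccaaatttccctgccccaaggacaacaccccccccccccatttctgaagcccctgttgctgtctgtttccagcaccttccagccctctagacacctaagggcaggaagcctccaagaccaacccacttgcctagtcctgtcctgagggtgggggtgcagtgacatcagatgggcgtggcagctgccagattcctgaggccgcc
The Itgb1 window held 1 GC box, the Lamb1 window 2 and the Lamb3 window 0, and 32.7% of all 32851 promoter windows of this length held at least 1. The TATA box TATAAA and the AP-1 site TGANTCA, also searched on both strands, were not found in these 3 windows, and they were held by 12.4% and 6.75% of all windows. The share of G and C was 68% for Itgb1, 62% for Lamb1 and 58.8% for Lamb3, against a median of 52.4%. The CpG dinucleotide occurred 21 times in the Itgb1 window, 14 times in the Lamb1 window and 2 times in the Lamb3 window, against a median of 6.

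Levels of different genes are compared as TPM, which RSEM scales by gene length and to the same sum in every library. A chain was called detected at a TPM of at least 1 with at least 3 expected counts. By this rule OG2 MEFs had 23 detected members, ICR MEFs 24 and the library labelled ESC 17, and 15 were detected in all 3. The share of all genes that passes this rule was not computed. Genes with a count of any size numbered 15702, 15817 and 14355 in the same order. The numbers of detected members stayed the same with counts scaled to the depth of the library labelled ESC. The chains detected were 12, 12 and 6 integrin alpha, 5, 5 and 4 integrin beta, and 6, 7 and 7 laminin chains in the same order. The 9 members detected in no library were Itga2, Itga10, Itgad, Itgae, Itgal, Itgax, Itgb6, Lama3 and Lamc3. The summed TPM of all members was 2340, 2513 and 889.

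**Figure D1:**
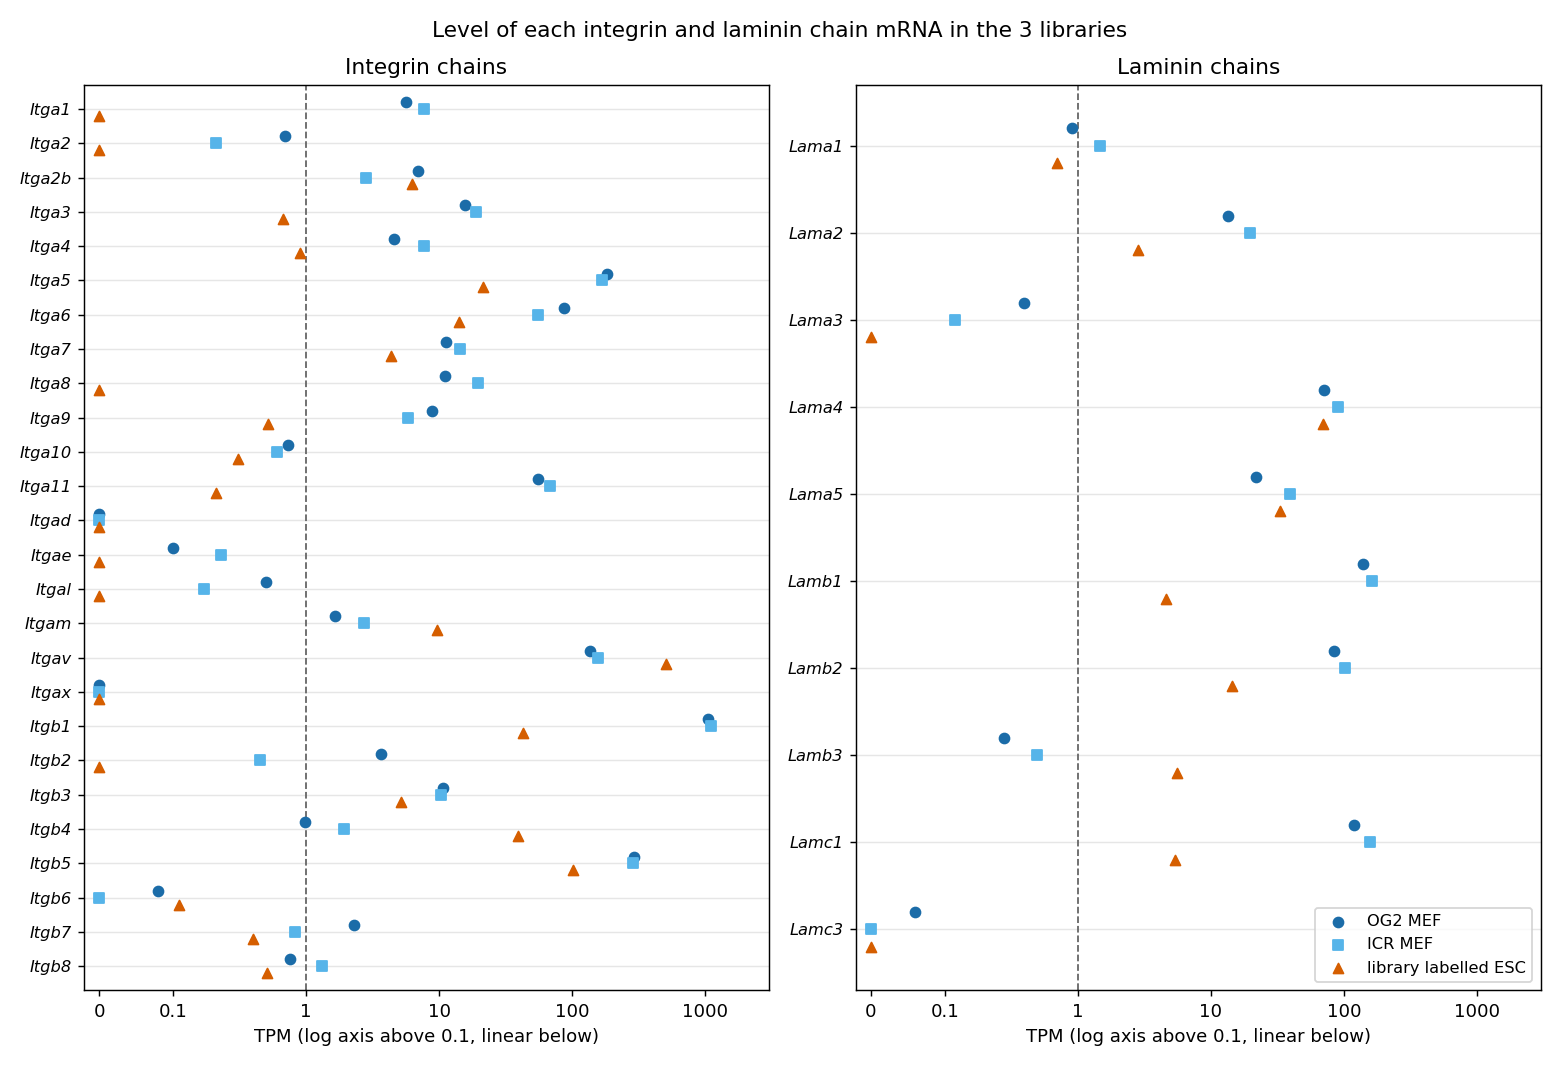
Level of each of the 36 chains in TPM, on an axis that is logarithmic above 0.1 and linear below, with 1 point per library and the detection limit of 1 TPM dashed. The Itgb1 points of the MEF samples lie at 1052 and 1106 TPM and that of the library labelled ESC at 42.5, and among detected chains only Itgam, Itgav, Itgb4 and Lamb3 have an ESC point to the right of both MEF points.

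The comparison between the library labelled ESC and the MEFs asks which of these chains separate the start from the reference end point of reprogramming. Most of the abundant MEF chains were lower in the library labelled ESC, and 3 chains that were near the limit in MEFs were higher. A difference is the ESC value minus the MEF mean of log2(CPM + 1) after TMM scaling, and this scale understates the change of low genes. Of the 34 members with a count, 3 exceeded both MEF samples by 1 log2 unit or more, where 21.9% of all 17810 genes with a count were. By the same margin 12 members were below both, against 25.9% of all genes. The 3 above were Itgam, Itgb4 and Lamb3. The 12 below were Itga1, Itga3, Itga5, Itga6, Itga8, Itga9, Itga11, Itgb1, Lama2, Lama5, Lamb1 and Lamc1. The median difference was -0.79 over the members and -0.13 over all genes with a count.

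The edgeR quasi-likelihood test with Benjamini-Hochberg adjustment was run over 12663 genes, among them 27 members that passed its filter on low counts. With an adjusted p of 0.05 as the limit, it called 4 members higher and 13 lower, while 31.4% of all tested genes were called higher and 36.0% lower. Besides the genes just named, Itgb3 was called higher and Lamb2 lower. All 10 fibroblast markers were called lower too, with a median difference of -3.60, and their part in the falls described here was not tested. The spread used by the test comes from the pair of MEF samples with 1 residual degree of freedom, so the single ESC library is assumed to vary as the MEFs do. The test draws the spread of each gene toward a trend over all tested genes. The MEF samples are of different strains, so p-values rest on the spread between these samples, shared in part across genes. In this spread, strain, animal and technical differences cannot be told apart.

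**Figure D2:**
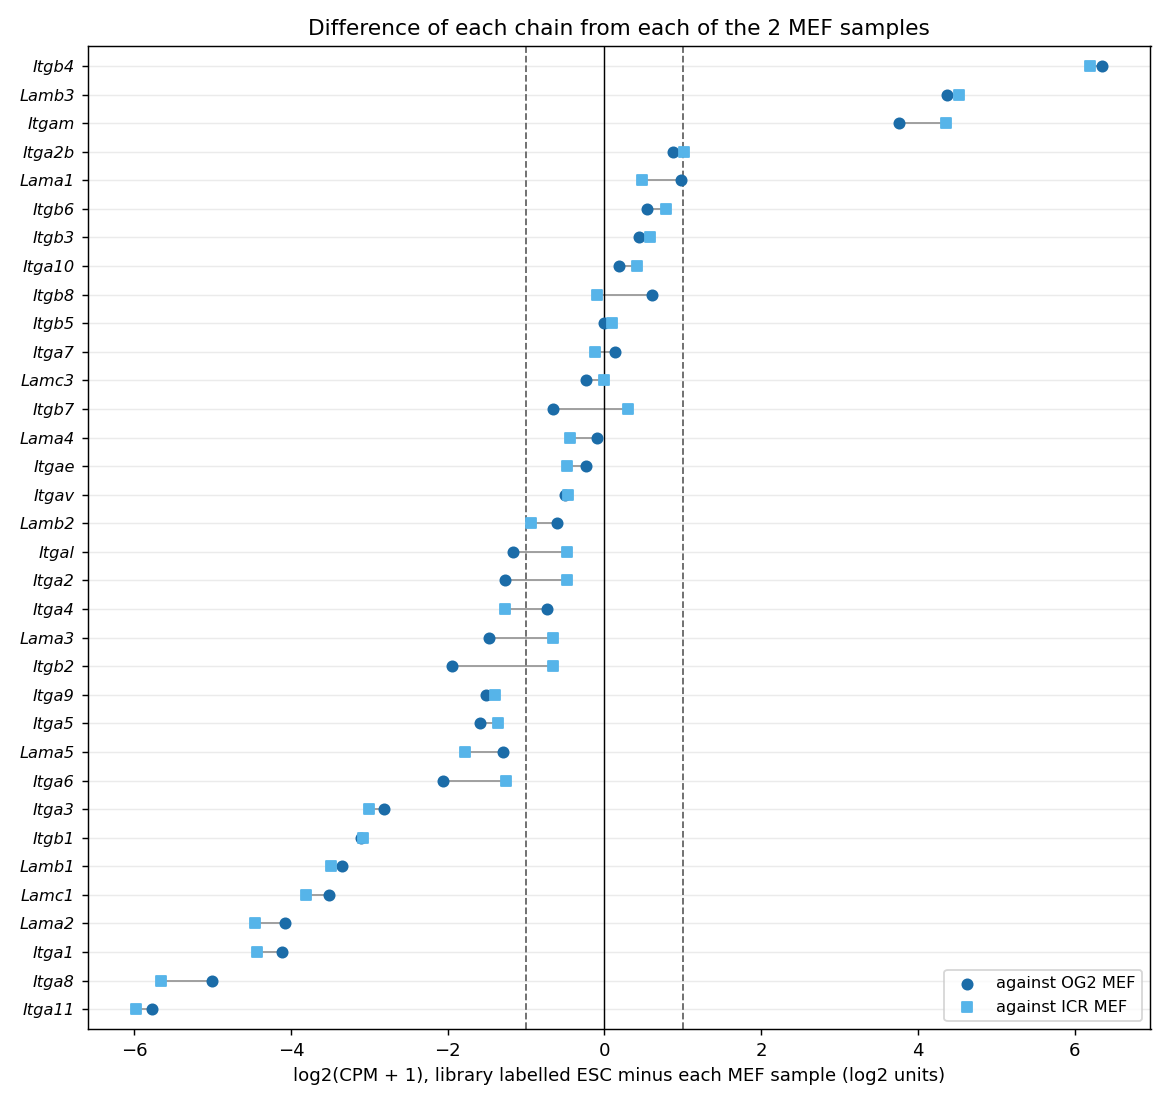
Difference of the library labelled ESC from OG2 MEFs (circles) and from ICR MEFs (squares) on the log2(CPM + 1) scale for the 34 chains with a count, ordered by the mean difference, with dashed lines at 1 log2 unit. Itgb4 lies farthest to the right at a mean of 6.27 and Itga11 farthest to the left at -5.88, and the points of a gene lie less than 1 log2 unit apart except for Itgb2.

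Long genes were lower in the library labelled ESC in general, and most of the chains are long. When genes with at least 10 counts in a library were split by length into 4 sets of equal size, the median difference was 0.77 in the shortest set, then -0.26, then -0.69, and -1.30 in the longest. Of the 34 members with a count, 24 fell in the longest set. With the median difference of each of 20 length bins taken away, the median over the members became 0.47, and 9 members exceeded both MEF samples by 1 log2 unit or more, while 9 were below both by that margin. Shares of all genes were not computed with length bins, and those given above are without them. The 9 above were Itga10, Itgam, Itgb3, Itgb4, Itgb6, Itgb8, Lama1, Lamb3 and Lamc3, among which Lamc3 had 0 counts and Itgb6 1 in the library labelled ESC. The 9 below were Itga1, Itga3, Itga6, Itga8, Itga11, Itgb1, Lama2, Lamb1 and Lamc1. Itga5, Itga9 and Lama5 were no longer among them, with differences of -0.30, -0.12 and 0.053.

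Among the beta chains, Itgb1, the partner of most alpha chains, was the most abundant member in both MEF samples. It had 10759, 9685 and 307 expected counts in OG2 MEFs, ICR MEFs and the library labelled ESC, or 1052, 1106 and 42.5 TPM. The MEF samples differed by 0.03 log2 units, and the ESC value lay far below both. Itgb1 (ENSMUSG00000025809, chr8:128685654-128733200) fell by 3.10 on the log2 scale, with an SD of the MEF samples of 0.02 (n = 2), which is 8.59-fold lower in CPM (adjusted p = 4.32e-06, edgeR). Its share of the summed TPM of all beta chains was 77.1% and 78.5% in the MEF samples and 22.4% in the library labelled ESC.

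Itgb5, which pairs with Itgav to bind vitronectin, took the first place among the beta chains in the library labelled ESC. Its counts were 2379, 2026 and 587 in the same order and its levels 293, 289 and 102 TPM. The ESC value in log2(CPM + 1) lay between the MEF values, with a difference of 0.05 ± 0.08 (SD, n = 2; adjusted p = 0.289, edgeR). In TPM the ESC value was below both MEF samples, with a log2 difference of -1.50, so the result for Itgb5 depends on the scale. The share of Itgb5 in the beta chains was 21.5% and 20.5% in the MEF samples and 53.8% in the library labelled ESC.

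Itgb4, which pairs with Itga6 in the hemidesmosomes of epithelia, was the member with the largest rise. It had 15, 16 and 416 counts, and 0.99, 1.92 and 38.9 TPM. Both MEF samples were near the limit of detection and did not overlap with the ESC value. Itgb4 (ENSMUSG00000020758, chr11:115974709-116008412) rose by 6.27 log2 units with an MEF SD of 0.11 (n = 2; adjusted p = 5.67e-08, edgeR), and the ratio of pooled counts was 104, with an exact 95% interval for counting error of 72.1 to 155. It took 0.073% and 0.136% of the beta chain TPM in MEFs and 20.5% in the library labelled ESC.

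Some markers of epithelium were higher together with Itgb4. Of 6 markers of stratified epithelium, 0, 1 and 2 were detected in OG2 MEFs, ICR MEFs and the library labelled ESC, and their summed level was 0.9, 3.55 and 212 TPM, of which, in the last, Krt14 made up 205 TPM and Krt6a 6.73. Krt5 and Dsg3, which define that epithelium, were at 0 in all 3 libraries, and Trp63 and Ivl were at 0 in the library labelled ESC. Of 6 markers of simple epithelium, 2, 2 and 3 were detected and the summed level was 12.2, 19.9 and 66.6 TPM. Krt8 was at 1.31, 4.83 and 54.1 TPM and Epcam at 0, 0 and 2.95 TPM. Krt18 was at 10.5, 14.5 and 9.29 TPM, although its difference in log2(CPM + 1) was 1.08. Cldn4 had 2, 2 and 0 counts, Cdh1 0, 0 and 2, and Cldn6 was at 0 in all 3 libraries. The part of such cells in the result was not tested.

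Itgb3, the partner of Itgav and of Itga2b, had 168, 139 and 57 counts and 10.7, 10.3 and 5.13 TPM. It was called higher at 0.51 ± 0.10 log2 units (SD, n = 2; adjusted p = 0.0216, edgeR), but not by DESeq2, where the adjusted p was 0.301, nor by edgeR without the filter on low counts, where it was 0.0715. In TPM the ESC value was below both MEF samples, so the direction of Itgb3 depends on the scale. The remaining beta chains were low in all libraries. Itgb7, the partner of Itga4 and Itgae in lymphocytes, had 16, 5 and 2 counts, and Itgb8, which with Itgav activates latent TGF-beta, had 14, 24 and 6. Neither passed the test (adjusted p = 0.876 and 0.631, edgeR), and the ESC value of each lay between the MEF values. Itgb6, an epithelial partner of Itgav, had 1, 0 and 1 counts and was not tested.

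Among the alpha chains that bind collagen, all with the beta1 chain, Itga11 was the most abundant in MEFs. It is a receptor for fibrillar collagen on fibroblasts. Its counts were 747, 789 and 2, and its levels 55.4, 68.5 and 0.21 TPM. The MEF samples lay close together and the ESC library had next to no reads. Itga11 (chr9:62677826-62783982) fell by 5.88 log2 units with an MEF SD of 0.14 (n = 2; adjusted p = 1.58e-06, edgeR), and the MEF to ESC ratio of pooled counts was 99.1, with an interval of 27.4 to 819. Itga1 had 92, 107 and 0 counts and 5.63, 7.67 and 0 TPM. It was lower in the library labelled ESC (adjusted p = 0.000234, edgeR), by at least 8.61-fold in CPM when 3 counts are taken as the limit of that library. Itga2 and Itga10, the other collagen receptors, were below 1 TPM in every library, with 8, 2 and 0 counts for Itga2 and 10, 7 and 3 for Itga10.

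The alpha chains that bind laminin are Itga3, Itga6 and Itga7. Itga3 had 205, 214 and 6 counts and 15.6, 19 and 0.67 TPM, and it fell by 2.91 log2 units with an MEF SD of 0.13 (n = 2; adjusted p = 0.00011, edgeR). Itga6 (chr2:71745616-71858416), the chain that laminin-bound pluripotent cells use, had 439, 228 and 25 counts and 87, 55.6 and 14.2 TPM. The ESC value of Itga6 was below both MEF samples, which themselves differed by 0.81 log2 units, and it fell by 1.66 with an MEF SD of 0.57 (n = 2; adjusted p = 0.00932, edgeR). Itga7, a laminin receptor of muscle, had 121, 133 and 33 counts and 11.2, 14.4 and 4.33 TPM. The CPM values of Itga7 overlapped, with a difference of 0.01 ± 0.18 log2 units (SD, n = 2; adjusted p = 0.604, edgeR). In TPM the ESC value of Itga7 was below both MEF samples, with a log2 difference of -1.36, so its result depends on the scale. Beside Itga7, the summed level of 6 muscle markers was 193, 117 and 11.2 TPM. Of this, Acta1 made up 129.7, 75.0 and 7.48 TPM and Des 63.7, 41.4 and 3.7 TPM. Myod1 and Ckm were at 0 in all 3 libraries, and Myog and Myh3 had at most 1 count in any. The part of muscle cells in the level of Itga7 was not tested.

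Itga5, Itga8 and Itgav bind the RGD motif of fibronectin and other ligands, and Itga5 and Itgav were the most abundant alpha chains in each library. Itga5, the main fibronectin receptor chain, had 2179, 1700 and 178 counts and 184, 168 and 21.3 TPM. It fell by 1.48 log2 units with an MEF SD of 0.16 (n = 2; adjusted p = 0.000367, edgeR), or 2.8-fold in CPM. Itga8, a chain of mesenchymal cells that binds nephronectin, had 176, 255 and 0 counts and 11.1, 19.5 and 0 TPM. It was at least 18.7-fold lower in the library labelled ESC with 3 counts as the limit (adjusted p = 0.000125, edgeR).

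Itgav (ENSMUSG00000027087, chr2:83724397-83806916), the alpha chain with the most beta partners, gave different answers in counts and in TPM. Its counts were 1907, 1706 and 334, and the ESC library was below both MEF samples by 0.46 and 0.50 log2 units, with a mean of -0.48 ± 0.03 (SD, n = 2; adjusted p = 0.144, edgeR). It was called lower without the filter on low counts (adjusted p = 0.0326, edgeR). Its levels were 136, 157 and 506 TPM, where the ESC value was the highest. In TPM it took 25.7% and 29.6% of the alpha chains in MEFs and 89.7% in the library labelled ESC. RSEM divides by an effective length, which is a mean over the transcripts of a gene weighted by the estimated abundance of each, and for Itgav it was 4983, 4536 and 335 bases. With the mean MEF length used in every library, an alternative chosen after seeing the data, Itgav was at 34.6 TPM in the library labelled ESC, and its share was 40.0%.

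The effective length of other members differed too. It was 7829, 6549 and 740.1 bases for Lama5, 7797, 7419 and 538 bases for Lama2 and 4449, 4760.4 and 1495 bases for Lama4. For 3 of the 25 members with a count in every library and at least 10 in one (Itgav, Lama2 and Lama5), the ESC length was under 0.25 times the MEF mean. The same was so for 187 of 11744 such genes, or 1.59%, while OG2 against ICR MEFs gave 0.119%. Levels of these genes are therefore also given below with MEF lengths.

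**Figure D3:**
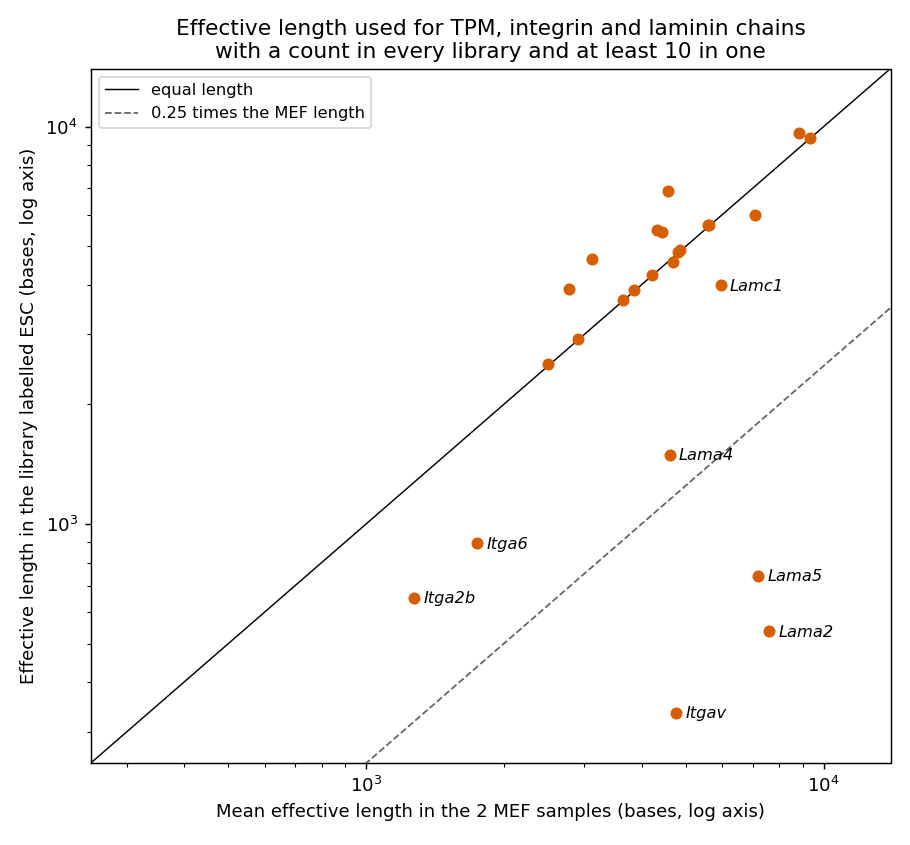
Effective length in the library labelled ESC against the mean of the MEF samples, in bases on log axes, for the 25 chains with a count in every library and at least 10 in one, with lines for equal length and for 0.25 times it. Itgav, Lama2 and Lama5 lie below the dashed line at 0.25 times, and most other chains lie near the line of equal length.

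Itga4 and Itga9, which bind VCAM-1, fibronectin and tenascin, were less abundant. Itga4 had 118, 159 and 17 counts and 4.62, 7.72 and 0.9 TPM, and its difference of -1.001 ± 0.38 log2 units (SD, n = 2) did not pass the test (adjusted p = 0.0658, edgeR). It passed without the filter on low counts (adjusted p = 0.00907, edgeR). Itga9 had 91, 77 and 7 counts and 8.83, 5.86 and 0.52 TPM. It was called lower at -1.46 ± 0.08 log2 units (SD, n = 2; adjusted p = 0.0187, edgeR), but not by DESeq2, where the adjusted p was 0.242.

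Of the chains known from blood cells, Itgam, the alpha chain of a receptor of macrophages and neutrophils, was the only alpha chain called higher. It had 21, 11 and 88.1 counts and 1.64, 2.73 and 9.61 TPM. Itgam (ENSMUSG00000030786, chr7:128062640-128118491) rose by 4.06 log2 units with an MEF SD of 0.42 (n = 2; adjusted p = 5.46e-06, edgeR), and the ratio of pooled counts was 21.3, with an interval of 14.1 to 33.0. Itgb2, its only beta partner, had 16, 3 and 0 counts and 3.67, 0.45 and 0 TPM, so it was at 0 where Itgam was highest. Itgb2 was also the only member that differed by at least 1 log2 unit between the MEF samples, by 1.28, where 2.76% of all genes with a count did.

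The summed level of leukocyte markers was lower where Itgam was higher. Of 8 markers, 7 were detected in each MEF sample and 3 in the library labelled ESC, and their summed level was 129, 78.4 and 27.7 TPM. Of this, Lyz2 made up 77.4, 50.0 and 5.88 TPM. By 1 log2 unit or more, 2 markers were below both MEF samples and 1 was above. Cd68, Tyrobp and Csf1r differed by 0.50, 0.22 and -0.20 log2 units. Ptprc, which defines leukocytes, had 11, 0 and 0 counts, and Fcer1g and Cd52 were also at 0 in the library labelled ESC, while Laptm5 was called higher there (46, 16 and 64 counts; adjusted p = 0.000267, edgeR). The part of leukocytes in the level of Itgam was not tested. The other alpha partners of Itgb2 were low as well. Itgal had 7, 2 and 0 counts, and Itgad and Itgax had none in any library. Itgae, which binds E-cadherin together with Itgb7, had 1, 2 and 0 counts.

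Itga2b, the alpha chain of the fibrinogen receptor of platelets, had 15, 12 and 8 counts and 6.89, 2.82 and 6.23 TPM. Its difference was 0.95 ± 0.10 log2 units (SD, n = 2; adjusted p = 0.13, edgeR) and its ESC level was 3.1 TPM with MEF lengths, a scale on which its difference was -0.30. The summed level of 4 platelet and megakaryocyte markers was 13.9, 9.61 and 7.59 TPM. Gp9 was at 0 in all 3 libraries, and Pf4 and Ppbp were at 0 in the library labelled ESC. Gp1bb, the remaining marker, was at 1.94, 4.52 and 7.59 TPM, with a difference of 2.47 ± 0.56 log2 units (SD, n = 2). The part of such cells in the level of Itga2b was not tested.

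Of the 24 standard mouse integrin pairs, both chains were detected for 15 in each MEF sample and for 8 in the library labelled ESC. In both MEF samples 13 pairs were complete, of which 10 held Itgb1. In all 3 libraries 7 pairs were complete, namely Itgb1 with Itga5, Itga6, Itga7 and Itgav, Itgb3 with Itga2b and Itgav, and Itgb5 with Itgav. The 6 pairs complete in both MEF samples and not in the library labelled ESC were Itgb1 with Itga1, Itga3, Itga4, Itga8, Itga9 and Itga11. In each of them the alpha chain was under the limit, between 0 and 0.9 TPM. Itga3, Itga4 and Itga9 still had counts there, and with 0.5 TPM as the limit these 3 chains were detected and 12 pairs were complete in the library labelled ESC. No pair that binds collagen was complete in the library labelled ESC.

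The laminin receptor Itga6-Itgb4 was complete in the library labelled ESC and not in OG2 MEFs, where Itgb4 was just under the limit of 1 TPM. Its lowest chain was Itgb4 at 0.99 and 1.92 TPM in the MEF samples and Itga6 at 14.2 TPM in the library labelled ESC, or 7.04 TPM with MEF lengths. It was complete in ICR MEFs too, and with MEF lengths, where Itgb4 was at 1.21 TPM, or with a limit of 0.5 TPM, also in OG2 MEFs. Itgam-Itgb2 and Itga4-Itgb7 were complete in OG2 MEFs only, with lowest chains of 1.64 and 2.28 TPM, and Itgav-Itgb8 in ICR MEFs only, at 1.31 TPM. Itgam had no complete pair in the library labelled ESC. The 7 pairs complete in no library were Itgb1 with Itga2 and Itga10, Itgb2 with Itgal, Itgax and Itgad, Itgav-Itgb6 and Itgae-Itgb7.

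In both MEF samples the alpha chain was the lowest in each complete pair with Itgb1, and Itgb1 the higher chain. The summed TPM of the beta chains was 2.57 and 2.66 times that of the alpha chains in OG2 and ICR MEFs and 0.336 times in the library labelled ESC. With MEF lengths the ratio was 2.54, 2.71 and 2.23, and without division by length it was 2.18, 2.20 and 1.96. On both of these scales the beta chains summed to more than the alpha chains in every library. The ratio was still lowest in the library labelled ESC.

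**Figure D4:**
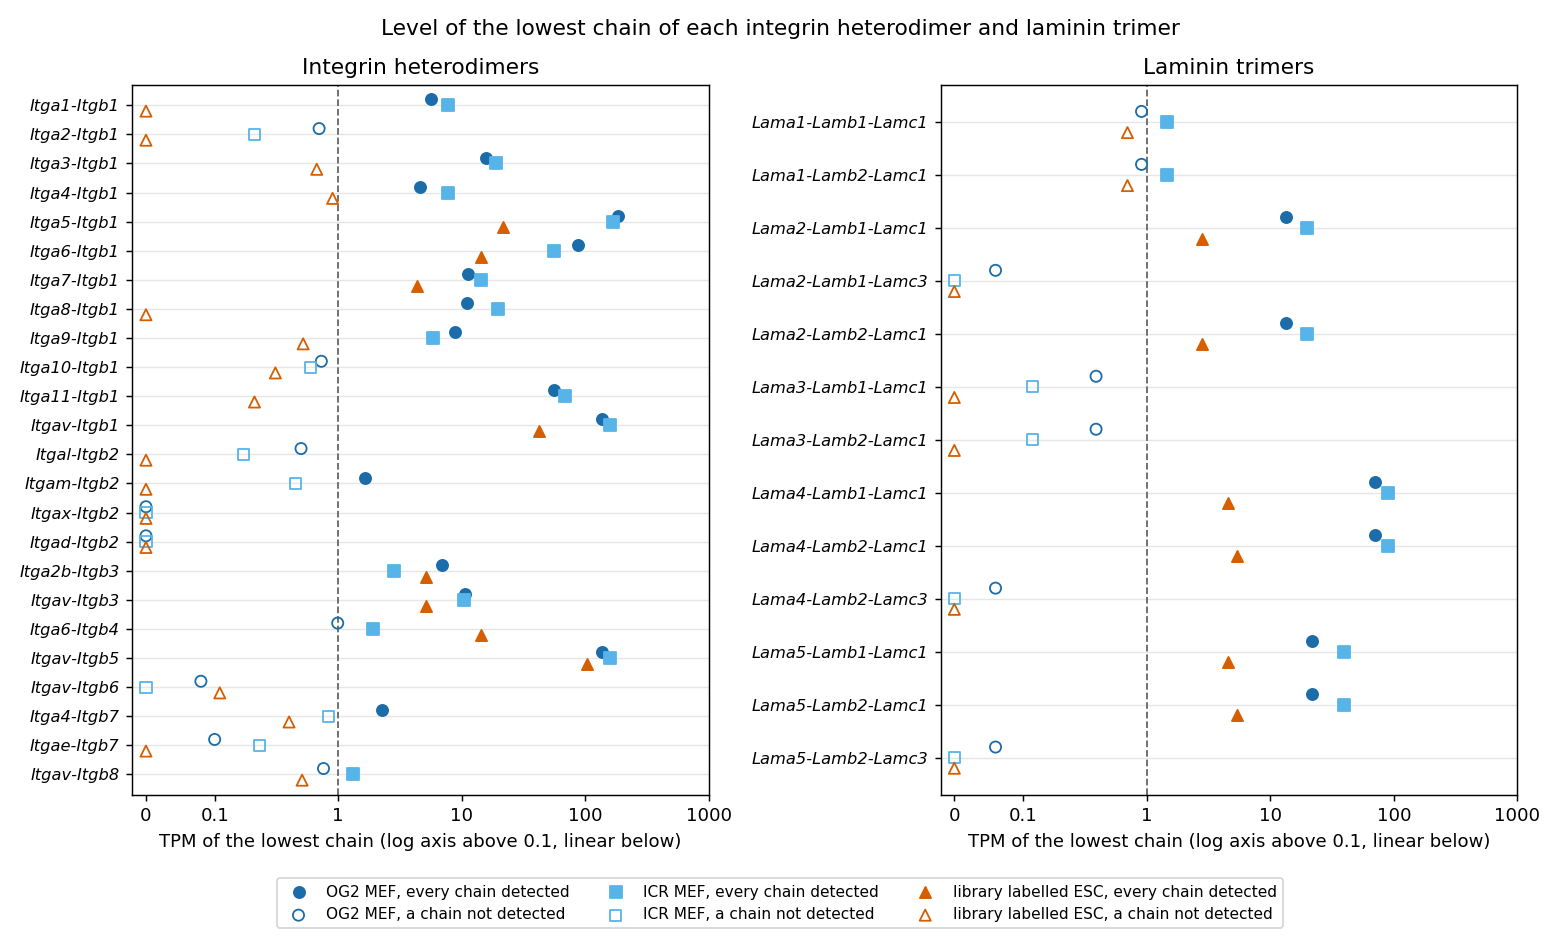
TPM of the lowest chain of each of the 24 integrin pairs and 13 laminin trimers in each library, on an axis that is logarithmic above 0.1 and linear below. Filled symbols mark pairs or trimers with every chain detected and open symbols those with a chain not detected, and the ESC symbols of the 6 trimers with a filled symbol in all 3 libraries lie between 2.83 and 5.35 TPM, below those of MEFs at 13.4 to 90.2 TPM.

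Of the laminin alpha chains, Lama4, found in vessels and mesenchyme, was the most abundant in all 3 libraries. It had 878, 1030 and 204 counts and 70.2, 90.2 and 69.3 TPM. Its difference was -0.27 ± 0.25 log2 units (SD, n = 2; adjusted p = 0.654, edgeR), which is close to the spread between the MEF samples. Beside Lama4, the summed level of 6 endothelial markers was 6.47, 16.3 and 26.4 TPM, of which Pecam1 made up 0, 0 and 22.8 TPM. Tek had 3, 4 and 23 counts, Kdr 61, 54 and 0, and Emcn 10, 36 and 1. Esam had 0, 3 and 2 counts and Cdh5 1, 0 and 0. The part of such cells was not tested. Lama5 (chr2:180176373-180225859), the alpha chain of most adult and early embryonic basement membranes, had 482, 621 and 48 counts and 21.9, 39.5 and 32.9 TPM. By count it fell by 1.53 log2 units with an MEF SD of 0.34 (n = 2; adjusted p = 0.00174, edgeR), while in TPM the ESC value lay between the MEF values. With MEF lengths Lama5 was at 3.29 TPM and Lama4 at 21.9 TPM in the library labelled ESC.

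Lama2, the chain of muscle basement membranes, had 295, 352 and 3 counts and 13.4, 19.8 and 2.83 TPM. It fell by 4.27 log2 units with an MEF SD of 0.26 (n = 2; adjusted p = 2.94e-05, edgeR), and the MEF to ESC ratio of pooled counts was 27.8, with an interval of 9.48 to 135. Its call as detected in the library labelled ESC rested on 3 counts, and with MEF lengths it was at 0.194 TPM. Lama1, the chain of the first basement membranes of the embryo, had 24, 33 and 13 counts and 0.91, 1.47 and 0.7 TPM, and did not pass the test (0.73 ± 0.35 log2 units, SD, n = 2; adjusted p = 0.141, edgeR). Lama3, an epithelial chain, had 10, 3 and 0 counts and was detected in no library.

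Lamb1 and Lamc1, the beta and gamma chains of the widest use, both fell. Lamb1 (ENSMUSG00000002900, chr12:31265234-31329644) had 2158, 2176 and 51 counts and 138, 162 and 4.59 TPM. The MEF samples differed by 0.14 log2 units, and Lamb1 fell by 3.42 with an MEF SD of 0.10 (n = 2; adjusted p = 2.96e-06, edgeR), or 11-fold in CPM. Lamc1 (ENSMUSG00000026478, chr1:153218922-153332786), the gamma chain of most trimers, had 2001, 2242 and 42 counts and 118, 158 and 5.35 TPM. It fell by 3.66 log2 units with an MEF SD of 0.20 (n = 2; adjusted p = 3.9e-06, edgeR), or 13.1-fold in CPM. Lamc3, the other gamma chain listed, had 1, 0 and 0 counts.

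Lamb2, which replaces Lamb1 at the neuromuscular junction and in the kidney, had 959, 1114 and 156 counts and 83.5, 102 and 14.4 TPM, and it was called lower at -0.77 ± 0.24 log2 units (SD, n = 2; adjusted p = 0.0271, edgeR). The call was lost with DESeq2 (adjusted p = 0.123) and with median-of-ratios size factors in edgeR (adjusted p = 0.103). With length bins its direction turned, to 0.40. The share of Lamb1 in the summed TPM of the beta chains was 62.2% and 61.3% in MEFs and 18.7% in the library labelled ESC, while that of Lamb2 was 37.7%, 38.5% and 58.7%.

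Lamb3 (ENSMUSG00000026639, chr1:193207699-193343878), the beta chain of the laminin that anchors epidermis, was the only laminin chain called higher. It had 3, 2 and 43 counts and 0.28, 0.49 and 5.58 TPM. It rose by 4.45 log2 units with an MEF SD of 0.10 (n = 2; adjusted p = 1.62e-05, edgeR). The ratio of pooled counts was 66.6, with an exact 95% interval of 26.4 to 216 for counting error. It took 0.126% and 0.186% of the laminin beta chains in MEFs and 22.7% in the library labelled ESC. Lama3, its usual alpha partner, was at 0 in the library labelled ESC. None of the 13 trimers made only of listed chains holds Lamb3, and trimers with other chains were not analysed here.

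Of these 13 laminin trimers, OG2 MEFs had every chain of 6, ICR MEFs of 8 and the library labelled ESC of 6. The 6 that all libraries shared were 211, 221, 411, 421, 511 and 521, where the digits give the alpha, beta and gamma chain. Trimers 111 and 121 were complete in ICR MEFs only, where Lama1 was at 1.47 TPM. This rested on the limit of 1 TPM, since Lama1 was at 0.91 TPM in OG2 MEFs and 0.7 TPM in the library labelled ESC. With 0.5 TPM as the limit, both were complete in all 3 libraries, and each library had 8 complete trimers. The 5 trimers complete in no library were 311 and 321, which need Lama3, and 213, 423 and 523, which need Lamc3.

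The lowest chain differed between the cells in 4 of the 6 shared trimers. In both MEF samples it was the alpha chain in all 6 shared trimers, with 70.2 and 90.2 TPM for 411 and 421, and 21.9 and 39.5 TPM for 511 and 521. For 211 and 221 it was Lama2 in all 3 libraries, at 13.4, 19.8 and 2.83 TPM. In the library labelled ESC it was Lamb1 at 4.59 TPM for 411 and 511, and Lamc1 at 5.35 TPM for 421 and 521. With MEF lengths it was Lamc1 at 3.48 TPM for 411 and 421, and Lama5 at 3.29 TPM for 511 and 521, as in MEFs, while 211 and 221 were no longer complete. With 10 expected counts as the minimum, 211 and 221 were also lost, and with 5 TPM as the minimum 2 trimers were left.

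The gamma and beta chains were lower relative to the alpha chains in the library labelled ESC in TPM and in TPM with MEF lengths. The summed TPM of the gamma chains listed was 1.11 and 1.05 times that of the alpha chains in OG2 and ICR MEFs and 0.0506 times in the library labelled ESC. It was 1.12, 1.04 and 0.134 times with MEF lengths. The ratio of laminin beta to alpha chains was 2.08, 1.74 and 0.233 in TPM, and 2.03, 1.80 and 1.15 with MEF lengths.

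The mRNAs of 3 lists of genes that work with integrins or laminins are given beside all genes, of which 25.9% were 1 log2 unit or more below both MEF samples and 21.9% above, 36.0% of those tested were called lower and 31.4% higher, and the median difference was -0.13. Of 20 integrin activators and adaptors, 18, 18 and 16 were detected in OG2 MEFs, ICR MEFs and the library labelled ESC, 11 were 1 log2 unit or more below both MEF samples and 0 above, and of 17 tested 13 were called lower and 2 higher, with a median difference of -1.27. The 3 with the highest mean level were Actn1, Actn4 and Ilk. Actn1, which links integrins to actin, had 827, 758 and 24 TPM and fell by 3.27 log2 units (adjusted p = 4.57e-06, edgeR). Actn4, its relative, had 671, 597 and 279.8 TPM and was called higher at 0.41 log2 units (adjusted p = 0.0289, edgeR), although its TPM was lower. Ilk, a pseudokinase at the tail of beta chains, had 616, 536 and 63.7 TPM and fell by 1.20 log2 units (adjusted p = 0.00232, edgeR).

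Of 10 basement membrane partners of laminin, 10, 10 and 7 were detected, 7 were 1 log2 unit or more below both MEF samples and 0 above, and of 10 tested 6 were called lower and 0 higher, with a median difference of -1.85. Sparc, which binds collagen IV, had 3275, 3691 and 443 TPM and fell by 1.45 log2 units (adjusted p = 0.000452, edgeR). Col4a1, a chain of the collagen of basement membranes, had 343, 423 and 13.7 TPM and fell by 3.22 (adjusted p = 4.6e-06, edgeR). Hspg2, which encodes perlecan, had 323, 365 and 53.7 TPM, and its difference of -0.46 log2 units did not pass the test (adjusted p = 0.194, edgeR).

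Of 11 other integrin ligands, 10 matched a symbol, 8 were detected in each library, 6 were 1 log2 unit or more below both MEF samples and 1 above, and of 8 tested 6 were called lower and 0 higher, with a median difference of -4.08 over the 9 with a count. Fn1, the fibronectin bound by Itga5-Itgb1, had 2339, 2909 and 59.8 TPM and fell by 4.88 log2 units (adjusted p = 9.67e-07, edgeR). Thbs1, a thrombospondin, had 2052, 1990.3 and 3.47 TPM and fell by 7.57 (adjusted p = 2.23e-07, edgeR). Spp1, which encodes osteopontin, a ligand of Itgav pairs, had 586, 698 and 10.4 TPM and fell by 4.28 (adjusted p = 1.42e-06, edgeR). Cdh1, the E-cadherin that Itgae binds, was the ligand above both MEF samples and had 0, 0 and 2 counts.

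The MEF samples were alike in these genes. The median absolute difference between them was 0.27 log2 units over the 34 members with a count and 0.22 over all genes with a count. The ESC value lay above both MEF values for 8 members, below both for 21 and within their range for 5 (Itga7, Itgb5, Itgb7, Itgb8 and Lamc3). The same counts were not made over all genes, so these numbers are not read as particular to the chains. In the library labelled ESC 19 of the 36 members had fewer than 10 counts and 10 were at 0, against 2 at 0 in OG2 MEFs and 4 in ICR MEFs, so that a low level of these chains was not detectable at its depth.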

How the data were processed

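RNA-seq tables of 3 libraries, 2 of MEFs and 1 labelled ESC, were analysed. The sample labels describe a TruSeq kit and a MiSeq, and the study's methods another TruSeq kit and the NextSeq system. The authors' processing notes name Bowtie, RSEM and the mm10 build. The deposited tables hold, for each of 29267 genes, the expected count, the estimated number of reads, and the TPM, which the authors' RSEM run scaled by effective length and to a sum of 1000000. The study's methods name a GC-content normalization, which the expected counts were assumed not to include. Their Ensembl release was not settled.

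Identifiers were matched to GENCODE M21 symbols (28756 of 29267). Expected counts were rounded and scaled with TMM (edgeR 4.0.16, R 4.3.3), and log2(CPM + 1) was computed. The edgeR quasi-likelihood test used its filter on low counts and Benjamini-Hochberg adjustment, and it was tested on simulated data. Intervals of ratios are exact binomial at 95%. Members and lists were chosen with earlier results of these data known. Members detected in at least 1 library were described, and the 3 members with the highest mean TPM of each other list. Alternatives were pseudocounts of 0.1 and 5, median-of-ratios size factors, DESeq2 1.42.0, TPM in place of CPM, 20 length bins, a minimum of 10 counts, no filter, other detection limits, counts scaled to the depth of the library labelled ESC, and each MEF sample left out. TPM with MEF lengths was chosen after seeing the data. The deposited FPKM values were not used. Python 3.11.15 with pandas 2.3.3, numpy 2.4.6, scipy 1.17.1 and matplotlib 3.10.9 gave the remaining values and figures.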

Additional observations from a re-analysis of the deposited data

How the results depend on the processing

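The direction of 16 of 34 members with a count was kept under every alternative. Itgb4, Lamb3 and Itgam were higher and Itgb1, Lamb1, Lamc1, Itga11, Itga8, Itga1 and Lama2 lower under each of them. The median difference of the members, -0.79, was -1.27 and -0.28 with pseudocounts of 0.1 and 5, -1.001 with a minimum of 10 counts, -1.47 in TPM with MEF lengths and -0.70 to -0.47 with each MEF sample left out, and it turned to 0.47 with length bins. With median-of-ratios size factors it was -0.69, while the median over all genes with a count moved from -0.13 to -0.12. Members above both MEF samples, 3, numbered 5 with a pseudocount of 0.1 and 9 with length bins. With length bins the direction turned for Itga2 (0.15), Itga4 (0.58), Itgae (0.42), Itgal (0.52), Itgav (0.86), Itgb7 (0.31), Lama3 (0.52), Lama4 (1.07), Lama5 (0.053), Lamb2 (0.40) and Lamc3 (1.22). In deposited TPM it turned for Itga7 (-1.36), Itga10 (-0.34), Itgav (1.78), Itgb3 (-0.91), Itgb5 (-1.50), Itgb8 (-0.42), Lama1 (-0.35) and Lama5 (0.16). In TPM with MEF lengths it turned for Itga2b (-0.30), Itga7 (-1.39), Itga10 (-0.35), Itgb3 (-0.94), Itgb5 (-1.54), Itgb8 (-0.52) and Lama1 (-0.37). With 1 MEF sample left out it turned for Itga7 (-0.12), Itgb7 (0.31) and Itgb8 (-0.090) without OG2 MEFs and for Itgb5 (-0.0045) without ICR MEFs. The cause of these turns was not tested.

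Complete trimers in the library labelled ESC, 6, numbered 2 with at least 5 TPM. Without division by length, the share of Itgb1 in the beta chains was 80.5% and 81.4% in OG2 and ICR MEFs, and that of Itgav in the alpha chains 31.1%, 31.6% and 47.6% in OG2 MEFs, ICR MEFs and the library labelled ESC. With MEF lengths the Itgav share in the library labelled ESC was 40.0%. Other counts of members detected, complete or called stayed within 1.5 times under the alternatives run. The edgeR test could not be run without 1 MEF sample, since no residual degree of freedom would be left. No paired analysis was possible because the labels give no replicate numbers and the library labelled ESC has no replicate. The depth of that library limits what is said of chains under 1.75 CPM.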
